A study of Mus musculus with 9 samples.

Results

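The 33 genes described here encode the enzymes and transporters with which the liver burns fatty acids and makes ketone bodies. They were taken from the 54532 genes listed in the deposited table by a set of symbols chosen for the proteins' function, and all 33 were found and had enough expression to be tested. The libraries were made from mouse liver RNA and form 3 groups of 3. The first is a knockout of Cth, the gene of the cysteine-forming enzyme cystathionine gamma-lyase, given 1% betaine in its drinking water. The second is the Cth knockout on drinking water alone, and the third is wild type on drinking water alone, so the betaine and the untreated knockout groups share the deletion. Betaine is a methyl donor that liver uses to turn homocysteine back into methionine. The labels give no strain, age, sex, allele design or duration of treatment, nor whether each library is its own animal, and p-values therefore measure only the spread between these samples, which may be technical.

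A long-chain fatty acid is first joined to coenzyme A, then carried into the mitochondrion by the carnitine shuttle, whose outer-membrane step, Cpt1a, limits the flux. In the mitochondrion each turn of beta-oxidation uses an acyl-CoA dehydrogenase, a hydratase, a hydroxyacyl-CoA dehydrogenase and a thiolase, and electron-transfer flavoprotein passes the electrons on to the respiratory chain. Peroxisomes shorten very long chains by a parallel set of enzymes, the Cyp4a enzymes of the endoplasmic reticulum oxidise the far end of the chain, and liver turns the surplus acetyl-CoA into ketone bodies. Many of these genes are targets of the nuclear receptor PPAR-alpha, encoded by Ppara, which is most active in fasting.

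The deposited values are FPKM, fragments per kilobase of transcript on a library scale set by the authors. Read totals recovered from them ran from 15184982 to 17473962 per library, and the least covered value of a member, Cyp4a14 in 1 betaine library, still rested on 139 reads. Cth measured 0.319, 0.309 and 0.781 FPKM in the betaine libraries, 0.583, 0.278 and 0.770 FPKM in the knockout and 285, 257 and 219 FPKM in wild type, which matches the labels. Wild type replicate 3 stood apart: Xist, the RNA of the inactive X chromosome, measured 26.6 FPKM there against at most 0.0124 FPKM in the other 8 libraries, and 4 Y-linked genes together had 0 reads there against 1512 to 2393 in each other library. That is the pattern of a female sample and the other 8 libraries have that of males, although the labels give no sex. Sex is thus partly mixed with genotype in the comparisons with wild type. Wild type replicate 3 was the lowest of its group for 22 of the 33 members (66.7%) and for 45.6% of all tested genes. Wild type replicate 2 was the highest of its group for 24 members (72.7%) and for 33.7% of all genes. Members whose calls changed without wild type replicate 3 are named below, and fold changes without it are given for some members. Summed hepatocyte markers (9 of 10 found by symbol) measured 39425 to 59939 FPKM in the betaine group, 55090 to 68212 FPKM in the knockout and 56263 to 72211 FPKM in wild type. In the knockout against wild type, 3 of the 9 passed, Apoa2 (log2 difference 0.92) and Apoa1 (0.81) higher and Cps1 (-1.42) lower. In betaine against wild type Pck1 was called lower, with means of 285 FPKM with betaine and 1135 FPKM in wild type. The 6 endothelial markers summed to 19.7 to 31.2 FPKM with betaine, 23.5 to 31.1 FPKM in the knockout and 31.5 to 57.0 FPKM in wild type, with Kdr called lower in the knockout against wild type and Clec4g in betaine against wild type. The 6 Kupffer cell markers summed to 53.8 to 149 FPKM with betaine, 71.9 to 87.2 FPKM in the knockout and 113 to 142 FPKM in wild type, and none passed. Of these marker calls that of Cps1 was kept without wild type replicate 3 and the others were not. The part of these markers in the members' results was not tested. Myh7 and Mb, markers of muscle tissues that also burn fatty acids, were at 0 in every library. The brown fat marker Ucp1 measured 1.19 FPKM in knockout replicate 3 and 0 in every other library. The whole list of 7 muscle and brown fat markers summed to at most 2.97 FPKM. In bulk liver, fewer cells of a type and less RNA per cell cannot be told apart.

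Promoter windows of 250 bases before to 50 after the annotated start were matched in RefSeq (GRCm38.p6) for 26 of the 33 members, in 28 windows. GGGCGG, the GC box, stood on either strand in 21 of the 28 windows, and in 35.7% of all 32851 windows of that length. CCAAT stood on either strand in 13 of the 28 windows, against 37.4% of all windows, and TATAAA in 0 of the 28, against 13.6%. The median GC content was 60.7% in the members' windows and 52.7% in all windows. The arrangement known for PPAR-alpha, 2 copies of AGGTCA in the same direction with 1 base between them, was in 0 of the 28 windows and in 0.0396% of all windows. With both copies relaxed to AGGNCA it was again in 0 of the 28 and in 0.381% of all windows, which says only that these letters do not stand so near the start. The 250 bases before the start are shown for 4 members that changed in the knockout, Cpt1a and Acad11 as lower ones and Eci1 and Etfb as higher ones, with GC boxes and CCAAT in capitals on either strand. Cpt1a lies at chr19:3323051-3323300 (plus strand), of which GENCODE places 234 bases in an intron and 16 in an exon of longer Cpt1a transcripts. Acad11 lies at chr9:104063474-104063723 (plus strand), with 165 bases in an intron and 85 in an exon of longer Acad11 transcripts and the predicted gene Gm28305 annotated over it. Eci1 lies at chr17:24426433-24426682 (plus strand), of which 208 bases are outside the gene and 42 in its exon, and Etfb lies at chr7:43443822-43444071 (plus strand), wholly outside the gene.
Cpt1a: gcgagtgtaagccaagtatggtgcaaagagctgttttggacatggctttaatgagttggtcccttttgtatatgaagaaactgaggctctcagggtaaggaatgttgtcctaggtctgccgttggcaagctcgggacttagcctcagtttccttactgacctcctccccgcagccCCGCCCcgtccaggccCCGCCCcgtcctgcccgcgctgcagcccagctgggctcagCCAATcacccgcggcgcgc
Acad11: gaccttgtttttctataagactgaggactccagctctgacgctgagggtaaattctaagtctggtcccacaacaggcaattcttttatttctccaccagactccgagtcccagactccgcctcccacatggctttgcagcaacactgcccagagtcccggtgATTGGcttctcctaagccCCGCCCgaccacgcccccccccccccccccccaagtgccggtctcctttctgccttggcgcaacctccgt
Eci1: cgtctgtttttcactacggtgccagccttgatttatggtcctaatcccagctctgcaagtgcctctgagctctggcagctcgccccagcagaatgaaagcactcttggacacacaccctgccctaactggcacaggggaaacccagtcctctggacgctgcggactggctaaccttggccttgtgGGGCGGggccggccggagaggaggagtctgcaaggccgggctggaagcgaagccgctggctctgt
Etfb: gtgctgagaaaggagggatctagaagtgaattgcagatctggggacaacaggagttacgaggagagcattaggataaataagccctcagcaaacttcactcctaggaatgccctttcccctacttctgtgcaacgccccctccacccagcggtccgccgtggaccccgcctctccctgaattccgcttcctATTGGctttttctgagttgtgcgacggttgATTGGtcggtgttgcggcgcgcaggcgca
Both directions of change stood beside GC boxes or CCAAT in these windows. Cpt1a had 2 GC boxes and 1 CCAAT, Acad11 had 1 of each, Eci1 had 1 GC box, and Etfb had 2 CCAAT and no GC box before its start.

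Hadha and Hadhb, the alpha and beta subunits of the mitochondrial trifunctional protein, are read away from each other on chromosome 5. Their RefSeq starts are 273 bases apart, at 30154980 and 30155253. GENCODE instead lets Hadha reach 30155162 and starts Hadhb at 30155248, so part of the shared sequence lies in an exon of Hadha. They are shown because they are the 1 pair of members whose RefSeq windows share bases: the window of Hadhb at chr5:30155003-30155252 (plus strand) has in capitals the 228 bases that also lie in the window of Hadha.
Hadhb: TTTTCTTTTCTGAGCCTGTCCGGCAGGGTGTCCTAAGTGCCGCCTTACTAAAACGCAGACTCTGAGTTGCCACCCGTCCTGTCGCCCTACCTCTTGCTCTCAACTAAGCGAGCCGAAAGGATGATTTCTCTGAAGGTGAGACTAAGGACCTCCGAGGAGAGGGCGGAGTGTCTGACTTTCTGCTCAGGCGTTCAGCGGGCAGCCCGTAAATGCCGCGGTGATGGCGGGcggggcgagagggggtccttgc
The values of both transcripts are given with the mitochondrial enzymes.

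**Figure D1:**
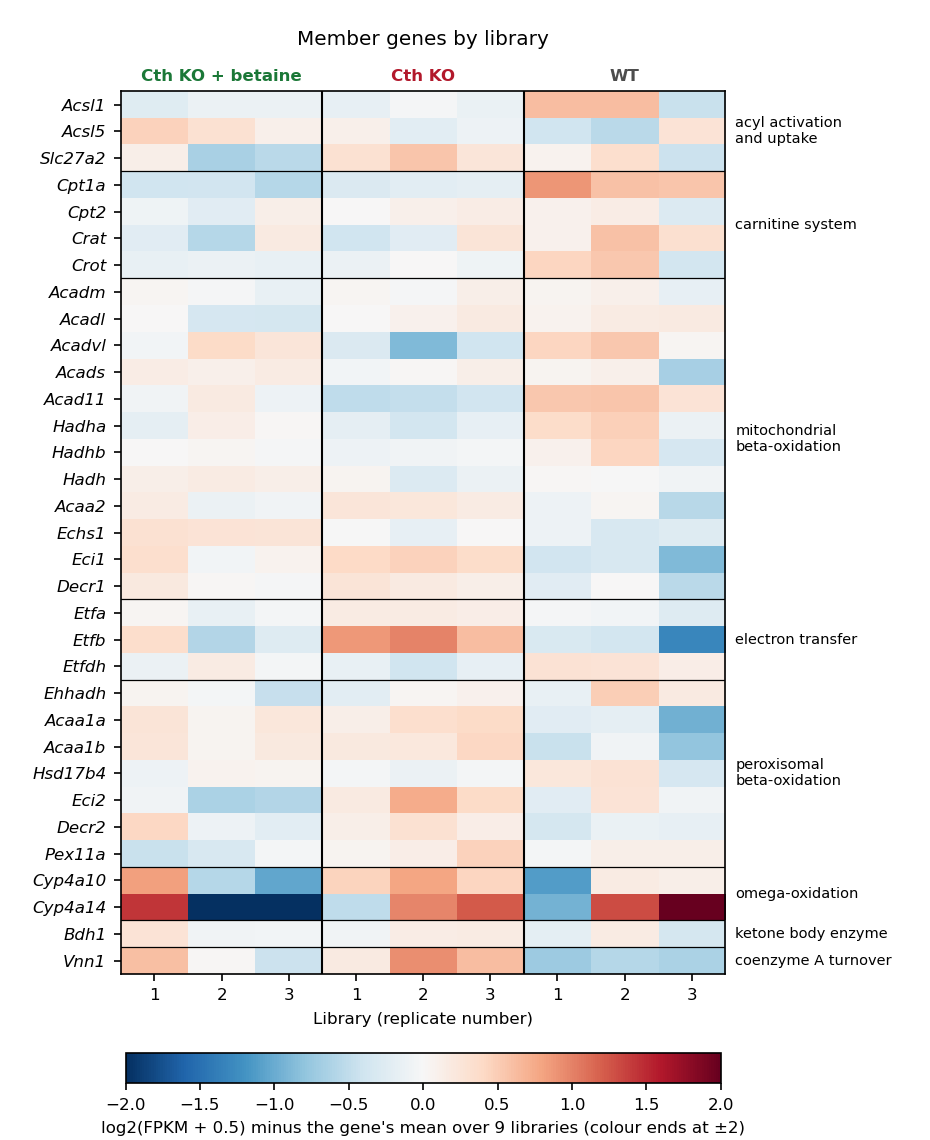
Level of each of the 33 members in each of the 9 libraries, as log2(FPKM + 0.5) minus the gene's own mean over the 9 libraries, with members in rows by role and libraries in columns by group; the colours end at 2 on either side. Cpt1a and Acad11 are low in all 6 knockout libraries relative to wild type, Etfb and Vnn1 are high in the 3 knockout libraries, and Cyp4a14 varies most within groups.

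Knockout against wild type asked which steps of fatty acid oxidation differ in transcript level when the enzyme is missing. The answer was split among the steps. Cpt1a, the gate of the carnitine shuttle, and the acyl-CoA dehydrogenases Acadvl and Acad11 fell, with Etfdh, while Eci1, Etfb, the thiolases Acaa1a and Acaa1b and the pantetheinase Vnn1 rose. In all 9 of 33 members (27.3%) passed an adjusted p of 0.05 in limma, beside 25.6% of all 11852 tested genes. The 5 that rose stand beside 12.8% of all genes higher in the knockout, and the 4 that fell beside 12.7% lower. The members' share was near that of all genes, as was the share at an unadjusted p under 0.05, 13 members beside 40% of all genes. The median log2 fold change, knockout minus wild type, was 0.15 over the members and 0.02 over all tested genes. The knockout and wild type libraries did not overlap for 10 members that were higher and 5 that were lower in the knockout, beside 23.6% and 23.2% of all genes. Without wild type replicate 3, 12 members passed, 5 higher and 7 lower, the added ones being Acsl1, Crot and Hadha, which is 36.4% of the members beside 21.7% of all genes. Without knockout replicate 2 only 3 passed, Eci1 higher and Cpt1a and Acad11 lower, among 896 genes in place of 3029.

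Betaine against the untreated knockout asked whether the supplement moves these transcripts. None of the 33 members passed the adjusted threshold in limma, where 5 genes in all did (0.0422% of those tested, 0.0169% higher and 0.0253% lower). At an unadjusted p under 0.05 there were 8 members, beside 22.5% of all genes. The betaine libraries lay wholly above the knockout ones for 6 members and wholly below for 8, beside 15.6% and 14.7% of all genes. Without betaine replicate 1, which was the highest of its group for 19 of the 33 members and for 38.0% of all genes, 3 members passed, Slc27a2, Etfb and Eci2, all lower with betaine, among 878 genes. The median log2 fold change, betaine minus knockout, was -0.10 over the members and 0.00 over all genes.

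The supplemented knockout against wild type gave 3 members past the threshold (11.7% of all genes passed). Echs1 and Eci1 were higher, beside 5.87% of all genes higher, and Cpt1a was lower, beside 5.78% lower. At an unadjusted p under 0.05 there were 10 members, beside 30.5% of all genes. The groups did not overlap for 6 members that were higher and 4 that were lower with betaine, beside 16.1% and 16.2% of all genes. Without wild type replicate 3, 6 members passed: Acsl5 and Echs1 higher, and Cpt1a, Acsl1, Crot and Acad11 lower, which is 18.2% of the members beside 12.0% of all genes. These 3 comparisons share their libraries in pairs, so their values are given side by side for each member and no likeness between them is drawn.

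**Figure D2:**
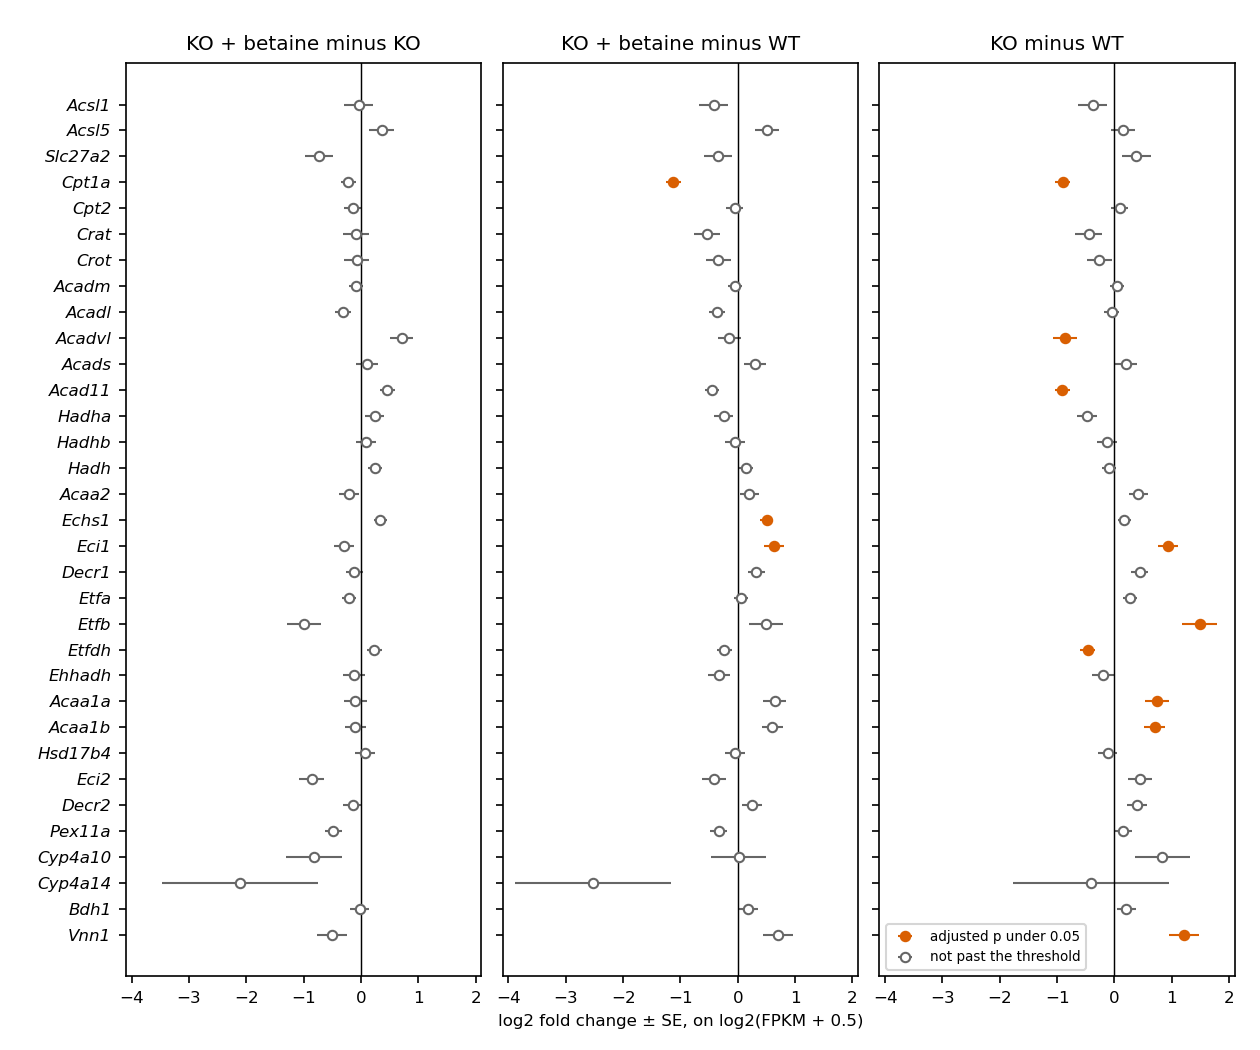
Log2 fold change of each member with its SE in the 3 comparisons, on log2(FPKM + 0.5); filled points passed an adjusted p of 0.05 in limma and open points did not. The panel of the betaine group against the knockout has no filled point, that of the betaine group against wild type has 3, and that of the knockout against wild type has 9.

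Of the genes that activate fatty acids or bring them into the cell, none of 3 passed the threshold in any comparison. Over all genes 25.6% passed in the knockout against wild type, 0.0422% in betaine against the knockout and 11.7% in betaine against wild type. Acsl1, the main long-chain acyl-CoA synthetase of liver, measured 81.2, 88.7 and 88.2 FPKM in the betaine libraries, 85.3, 93.8 and 87.1 FPKM in the knockout and 147, 147 and 70.5 FPKM in wild type. The wild type libraries lay on both sides of the other 6, with replicate 3 the lowest of all 9. The log2 fold change was -0.38 ± 0.25 for the knockout against wild type (limma adjusted p = 0.293) and -0.73 without wild type replicate 3 (adjusted p = 0.00909). The same library decided the call of Acsl1 for betaine against wild type, with -0.42 ± 0.25 (adjusted p = 0.298) in all libraries and -0.77 (adjusted p = 0.00742) without it. Acsl5, a second long-chain synthetase, measured 77.7, 69.3 and 60.1 FPKM with betaine, 60.5, 48.1 and 52.2 FPKM in the knockout and 42.5, 38.4 and 67.8 FPKM in wild type. Here wild type replicate 3 was the highest of its group, and betaine against wild type gave 0.51 ± 0.21 (adjusted p = 0.141), or 0.76 without that library (adjusted p = 0.0185). Slc27a2, a fatty acid transporter that also activates very long chains, measured 308, 182 and 196 FPKM with betaine, 353, 421 and 338 FPKM in the knockout and 299, 358 and 210.4 FPKM in wild type. Every betaine library was below every knockout library. That difference was -0.73 ± 0.25 (adjusted p = 0.142), and without betaine replicate 1 it was -0.97 (adjusted p = 0.0442).

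In the carnitine system 1 of 4 members fell in the knockout and none rose, beside 12.7% of all genes lower and 12.8% higher. Cpt1a (ENSMUSG00000024900, chromosome 19, 3322334 to 3385733 in GRCm38) measured 40.4, 41.1 and 36.0 FPKM with betaine, 43.6, 46.1 and 47.2 FPKM in the knockout and 99.0, 80.7 and 79.0 FPKM in wild type. All 6 knockout libraries, with and without betaine, lay below all 3 wild type libraries. The log2 fold change was -0.90 ± 0.13 in the knockout against wild type (adjusted p = 0.00567), and -1.12 ± 0.13 in betaine against wild type (adjusted p = 0.00383). Betaine against the knockout gave -0.22 ± 0.13 (adjusted p = 0.336), so the level was not shown to move with the supplement, although the 2 groups did not overlap. Cpt1a was the 1 member called lower against wild type, with and without betaine, whichever single library was left out, and under every other scaling and filter tried.

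The other carnitine genes did not pass in all 9 libraries. Cpt2, the inner-membrane carnitine palmitoyltransferase, averaged 73.1 ± 8.89 FPKM with betaine, 80.7 ± 3.99 FPKM in the knockout and 76.0 ± 11.3 FPKM in wild type (SD, n = 3 each), with overlapping groups. Crot, the peroxisomal carnitine octanoyltransferase, measured 123, 127 and 124 FPKM with betaine, 127, 139 and 129 FPKM in the knockout and 186, 200.3 and 106 FPKM in wild type. Its wild type replicates 1 and 2 were above all 6 knockout libraries and replicate 3 below them. Knockout against wild type was -0.26 ± 0.22 (adjusted p = 0.387) with that library and -0.55 without it (adjusted p = 0.0166). Crat, carnitine acetyltransferase, was the member with the lowest level and averaged 8.88 ± 2.44 FPKM with betaine, 9.43 ± 2.43 FPKM in the knockout and 13.0 ± 2.34 FPKM in wild type (SD, n = 3 each). Its log2 fold change of -0.54 ± 0.23 for betaine against wild type did not pass (adjusted p = 0.154).

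Among the 12 mitochondrial beta-oxidation members, Acadvl and Acad11 fell in the knockout and Eci1 rose, beside 12.7% of all genes lower and 12.8% higher. Acadvl, the very-long-chain acyl-CoA dehydrogenase (ENSMUSG00000018574, chromosome 11, 70010183 to 70015411), measured 51.5, 69.8 and 63.4 FPKM with betaine, 43.6, 28.8 and 40.5 FPKM in the knockout and 72.4, 78.1 and 55.0 FPKM in wild type. The knockout libraries were below all others and the betaine libraries overlapped wild type. Knockout against wild type was -0.86 ± 0.20 (adjusted p = 0.0164), and betaine against the knockout was 0.71 ± 0.20 (adjusted p = 0.111). The call was lost without knockout replicate 2 (adjusted p = 0.0653) and without wild type replicate 1 (adjusted p = 0.0519). Exons of Dvl2 on the opposite strand cover 42.9% of the exon bases of Acadvl, and no strand is stated for these libraries. Dvl2 itself measured 0.517 to 0.852 FPKM, which does not show how reads in the shared bases were counted.

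Acad11, a dehydrogenase of long and very long acyl-CoA (ENSMUSG00000090150, chromosome 9, 104063377 to 104127725), measured 18.7, 22.5 and 18.4 FPKM with betaine, 13.7, 14.0 and 15.1 FPKM in the knockout and 28.8, 29.2 and 24.0 FPKM in wild type. The 3 groups were in separate ranges, the knockout lowest and betaine between. Acad11 fell by 0.91 ± 0.13 on the log2 scale in the knockout against wild type (adjusted p = 0.00567), and this call was kept in every setting tried. Betaine against the knockout was 0.46 ± 0.13 (adjusted p = 0.111), and betaine against wild type was -0.45 ± 0.13 (adjusted p = 0.0539, and 0.0303 without wild type replicate 3). Against these, Acadm, the medium-chain dehydrogenase, averaged 75.5 ± 4.69 FPKM with betaine, 80.5 ± 4.18 FPKM in the knockout and 78.0 ± 7.22 FPKM in wild type (SD, n = 3 each). Acadl, the long-chain enzyme, and Acads, the short-chain one, had log2 fold changes of -0.05 ± 0.13 and 0.20 ± 0.19 for the knockout against wild type, neither past the threshold. Acadl measured 80.0, 63.3 and 62.5 FPKM with betaine, 79.8, 85.1 and 89.9 FPKM in the knockout and 84.1, 89.2 and 90.0 FPKM in wild type, and the betaine libraries were all below the wild type ones.

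Eci1, the isomerase that lets mitochondria burn unsaturated chains (ENSMUSG00000024132, chromosome 17, 24426641 to 24439348), measured 148, 112 and 124 FPKM with betaine, 155, 161 and 152 FPKM in the knockout and 90.0, 94.4 and 63.7 FPKM in wild type. All 6 knockout libraries lay above all 3 wild type libraries. It rose by 0.93 ± 0.17 on the log2 scale in the knockout against wild type (adjusted p = 0.00861), which was kept in every setting tried. Betaine against wild type gave 0.64 ± 0.17 (adjusted p = 0.0452), and this call was lost without wild type replicate 3 (0.46, adjusted p = 0.0663), without betaine replicate 1 (0.53, adjusted p = 0.120) and without any 1 of 6 further libraries, so that it was kept only when betaine replicate 2 was left out. Decr1, the reductase that works beside it on unsaturated chains, measured 38.7 to 45.0 FPKM with betaine, 42.7 to 47.1 FPKM in the knockout and 27.0 to 39.4 FPKM in wild type. Its knockout range was above wild type, and the difference of 0.44 ± 0.15 did not pass (adjusted p = 0.057). Without wild type replicate 3 that difference was 0.30 (adjusted p = 0.121).

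Echs1, the short-chain enoyl-CoA hydratase, had the smallest coefficient of variation of the 12 within the betaine group, 1.85%. It measured 33.4, 32.7 and 32.2 FPKM with betaine, 26.8, 24.0 and 27.0 FPKM in the knockout and 25.0, 21.4 and 22.4 FPKM in wild type. All betaine libraries were above all 6 others. Betaine against wild type was 0.51 ± 0.11 (adjusted p = 0.0241), betaine against the knockout 0.33 ± 0.11 (adjusted p = 0.141) and the knockout against wild type 0.17 ± 0.11 (adjusted p = 0.274). The call against wild type was lost without betaine replicate 1 (adjusted p = 0.0606). It was also lost without betaine replicate 3 and without wild type replicate 2.

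The subunits of the trifunctional protein, whose RefSeq windows share the bases shown above, did not have equal differences. Hadha measured 29.4, 36.5 and 33.9 FPKM with betaine, 29.1, 25.7 and 29.5 FPKM in the knockout and 42.8, 46.5 and 30.6 FPKM in wild type. Hadhb measured 20.8, 21.2 and 20.4 FPKM with betaine, 19.2, 19.6 and 20.1 FPKM in the knockout and 21.9, 28.0 and 16.3 FPKM in wild type. For Hadha the knockout libraries were all below wild type, and for Hadhb the wild type range enclosed both other groups. Knockout against wild type was -0.48 ± 0.17 for Hadha (adjusted p = 0.0644, and 0.0151 without wild type replicate 3) and -0.13 ± 0.17 for Hadhb (adjusted p = 0.596). The difference between the subunits was not itself tested. Acaa2, the mitochondrial thiolase, had the highest level of the 33 members and averaged 578 ± 60.7 FPKM with betaine, 668 ± 19.3 FPKM in the knockout and 507 ± 103 FPKM in wild type (SD, n = 3 each). Its knockout libraries were above wild type and the difference of 0.42 ± 0.17 did not pass (adjusted p = 0.102). Without wild type replicate 3 that difference was 0.24 (adjusted p = 0.232). Hadh, the short-chain hydroxyacyl-CoA dehydrogenase, was higher in every betaine library (54.3 to 56.5 FPKM) than in any knockout (41.5 to 52.1 FPKM) or wild type library (47.7 to 51.3 FPKM), and neither difference passed.

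Of the 3 electron-transfer members Etfb rose in the knockout against wild type and Etfdh fell, beside 12.8% of all genes higher and 12.7% lower. Etfb, the beta subunit of electron-transfer flavoprotein (ENSMUSG00000004610, chromosome 7, 43444083 to 43457800), measured 39.4, 20.4 and 25.8 FPKM with betaine, 57.1, 61.9 and 47.8 FPKM in the knockout and 24.9, 23.8 and 12.3 FPKM in wild type. The knockout libraries were above all others, and the betaine libraries overlapped wild type. It rose by 1.49 ± 0.30 on the log2 scale in the knockout against wild type (adjusted p = 0.0109), or by 1.17 without wild type replicate 3 (adjusted p = 0.016), and was lost at an adjusted p of 0.05 without knockout replicate 2. Betaine against the knockout was -0.99 ± 0.30 (adjusted p = 0.122), and -1.25 without betaine replicate 1 (adjusted p = 0.046). The predicted gene Gm45233 covers 53.0% of the exon bases of Etfb on the same strand and was listed at 0 in every library. How reads in the shared bases were counted is not stated, so that 0 does not show that the level of Etfb was unaffected.

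Etfa, the alpha subunit that pairs with Etfb, measured 167, 147 and 158 FPKM with betaine, 183, 182 and 179 FPKM in the knockout and 159, 157 and 136 FPKM in wild type. Knockout libraries were again above all others, by a log2 difference of 0.27 ± 0.12 against wild type that did not pass (adjusted p = 0.132). Etfdh, which hands the electrons from the flavoprotein to ubiquinone (ENSMUSG00000027809, chromosome 3, 79603788 to 79629500), measured 25.4, 31.0 and 26.7 FPKM with betaine, 25.0, 20.9 and 24.6 FPKM in the knockout and 34.0, 33.4 and 30.3 FPKM in wild type. The knockout was below every other library and fell by 0.47 ± 0.13 on the log2 scale against wild type (adjusted p = 0.0278). That call was lost when any 1 of knockout replicates 1, 2 or 3 or wild type replicates 1 or 2 was left out, with adjusted p up to 0.113.

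**Figure D3:**
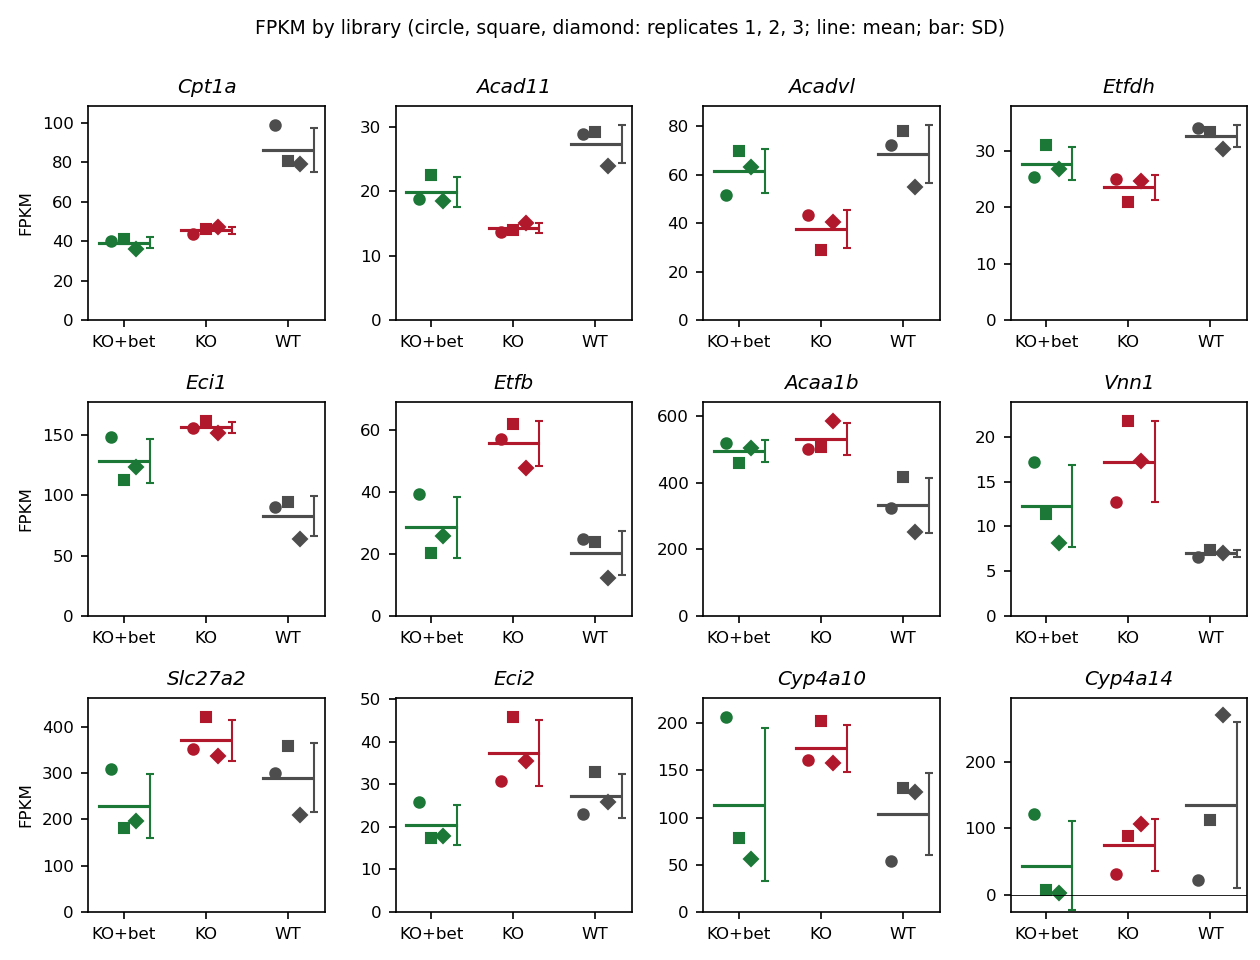
FPKM of 12 members in every library, with betaine-supplemented knockout, knockout and wild type from left to right; circle, square and diamond are replicates 1, 2 and 3, the line is the mean and the bar the SD. Cpt1a at 36.0 to 47.2 FPKM in the 6 knockout libraries lies below wild type at 79.0 to 99.0 FPKM, while Cyp4a14 spreads over 3.33 to 122 FPKM within the betaine group alone.

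Of the 7 peroxisomal members the thiolases rose in the knockout and none fell, beside 12.8% of all genes higher and 12.7% lower. Acaa1b (ENSMUSG00000010651, chromosome 9, 119148023 to 119157093) measured 521, 459 and 505 FPKM with betaine, 502, 507 and 585 FPKM in the knockout and 324, 418 and 254 FPKM in wild type. Acaa1a (ENSMUSG00000036138, chromosome 9, 119339676 to 119350299) measured 54.9, 47.6 and 53.6 FPKM with betaine, 49.7, 57.9 and 60.1 FPKM in the knockout and 38.9, 40.1 and 23.1 FPKM in wild type. For both, all 6 knockout libraries lay above wild type, whose replicate 3 was the lowest. The knockout against wild type gave 0.71 ± 0.19 for Acaa1b (adjusted p = 0.0242) and 0.74 ± 0.20 for Acaa1a (adjusted p = 0.028), and without wild type replicate 3 these were 0.53 and 0.49 (adjusted p = 0.0444 and 0.0312). Either call was lost without knockout replicate 2 (adjusted p = 0.0704 for Acaa1b and 0.0921 for Acaa1a), without knockout replicate 3 (adjusted p = 0.0821 for Acaa1b and 0.0855 for Acaa1a) and on the TPM and quantile scales. The call of Acaa1b was also lost without wild type replicate 1 (adjusted p = 0.0654) and without knockout replicate 1. The genes are near-identical copies, so the split of reads between them is uncertain.

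Eci2, the peroxisomal isomerase, measured 25.8, 17.4 and 17.9 FPKM with betaine, 30.9, 45.8 and 35.4 FPKM in the knockout and 23.0, 32.9 and 25.7 FPKM in wild type. Every betaine library was below every knockout library. Betaine against the knockout was -0.86 ± 0.21, the member with the lowest p in that comparison (adjusted p = 0.0909), and -1.04 without betaine replicate 1 (adjusted p = 0.0332). Pex11a, which helps peroxisomes divide, was lower in the betaine group (16.9 to 22.5 FPKM) than in the knockout (24.1 to 32.1 FPKM), by -0.49 ± 0.15 on the log2 scale, which did not pass (adjusted p = 0.127). The wild type range of Pex11a was 22.5 to 25.2 FPKM. Decr2, the peroxisomal dienoyl-CoA reductase, averaged 76.6 ± 18.8 FPKM with betaine, 83.5 ± 5.92 FPKM in the knockout and 63.2 ± 5.35 FPKM in wild type (SD, n = 3 each). Ehhadh and Hsd17b4, the bifunctional enzymes that carry out the middle steps, had overlapping groups in every comparison and log2 differences of -0.20 ± 0.20 and -0.12 ± 0.17 for the knockout against wild type, neither past the threshold.

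Neither omega-oxidation gene passed in any comparison. Of all tested genes 25.6% passed for the knockout against wild type, 0.0422% for betaine against the knockout and 11.7% for betaine against wild type. Cyp4a14, which had the largest coefficient of variation of the 33 members in each group, measured 122, 7.64 and 3.33 FPKM with betaine, 31.6, 88.8 and 106 FPKM in the knockout and 23.2, 112 and 269 FPKM in wild type. The highest library was 36.7 times the lowest in the betaine group, 3.35 times in the knockout and 11.6 times in wild type, and the groups overlapped throughout. The log2 fold change was -2.11 ± 1.36 for betaine against the knockout (adjusted p = 0.389). For the knockout against wild type it was -0.41 ± 1.36 (adjusted p = 0.842), and 0.38 without wild type replicate 3 (adjusted p = 0.870). Cyp4a10, its close relative, measured 206, 78.5 and 56.5 FPKM with betaine, 161, 202 and 158 FPKM in the knockout and 53.6, 131 and 127 FPKM in wild type. Betaine replicate 1 was the highest of its group for both genes and wild type replicate 1 the lowest. The knockout range of Cyp4a10 was above wild type, and the difference of 0.84 ± 0.48 did not pass (adjusted p = 0.225). The Cyp4a genes are close copies of each other, so reads may be shared between them.

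Vnn1, a pantetheinase of coenzyme A turnover (ENSMUSG00000037440, chromosome 10, 23894688 to 23905343), measured 17.2, 11.3 and 8.17 FPKM with betaine, 12.7, 21.7 and 17.3 FPKM in the knockout and 6.57, 7.36 and 7.05 FPKM in wild type. All 6 knockout libraries were above wild type, and the betaine and untreated knockout libraries overlapped. Vnn1 rose by 1.21 ± 0.26 on the log2 scale in the knockout against wild type (adjusted p = 0.013), a call lost without knockout replicate 2 (adjusted p = 0.0548). Betaine against wild type was 0.71 ± 0.26 (adjusted p = 0.107). Bdh1, which converts acetoacetate to 3-hydroxybutyrate, averaged 47.6 ± 6.58 FPKM with betaine, 48.4 ± 4.36 FPKM in the knockout and 42.2 ± 8.27 FPKM in wild type (SD, n = 3 each). Its groups overlapped in every comparison and its log2 differences were -0.03 to 0.21.

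Ketone metabolism outside the members was read from further genes of that step. Bdh2, a second hydroxybutyrate dehydrogenase, measured 5.25, 3.14 and 4.96 FPKM with betaine, 4.39, 5.85 and 5.31 FPKM in the knockout and 3.56, 2.49 and 1.83 FPKM in wild type. Its knockout libraries were all above wild type, and it rose in the knockout by 0.89 ± 0.24 on the log2 scale (adjusted p = 0.0251), a call that was lost without wild type replicate 3. The log2 differences between knockout and wild type were 0.05 for the thiolase Acat1, -0.46 for the ketone carrier Slc16a1 and -0.46 for Oxct1, which uses ketones in other tissues. None of those 3 passed in all 9 libraries, and Slc16a1 was called lower without wild type replicate 3.

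The wider pathway list of 47 genes, 44 of them tested, gave 5 higher and 4 lower in the knockout against wild type, beside 25.6% of all genes called. Fabp1, the fatty acid binding protein of liver (1.60 ± 0.23), Hsd17b10 (1.02 ± 0.20) and Ech1 (0.71 ± 0.20) rose, with Bdh2 and the medium-chain synthetase Acsm1 (0.46 ± 0.15). The synthetases Acsl3 (-1.02 ± 0.19), Acsm3 (-0.80 ± 0.22) and Slc27a5 (-0.57 ± 0.15) fell, with the dehydrogenase Acad10 (-0.52 ± 0.13). The list's median log2 difference was 0.07, against 0.02 over all tested genes. Without wild type replicate 3 the list gave 4 higher and 9 lower, beside 21.7% of all genes called, and Ech1, Acsm1 and Bdh2 were no longer called. With the exon length trend described below removed, the list gave 4 higher and 4 lower, beside 18.3% of all genes called. Ech1, Acsm1 and Acad10 were then lost, and Cyp4f14 and Acad12 gained. Betaine against the knockout gave none past the threshold, beside 0.0422% of all genes. At an unadjusted p under 0.05 there were 16 of the 44, beside 22.5% of all genes. Without betaine replicate 1 there were 4 higher and 5 lower, beside 7.41% of all genes called. Betaine against wild type gave 3 higher, Hsd17b10 (0.80), Acad12 (0.72) and Acox2 (0.64), and 1 lower, the carnitine importer Slc22a5 (-1.32 ± 0.16, adjusted p = 0.00391). Over all genes, 5.87% were higher and 5.78% lower in that comparison. Slc22a5 measured 4.25, 4.15 and 4.68 FPKM with betaine, 6.75, 8.81 and 10.4 FPKM in the knockout and 10.5, 12.6 and 11.8 FPKM in wild type, 3 ranges that did not overlap. Cyp4a12a, an omega-hydroxylase with higher levels in male mice, was listed at 0 in wild type replicate 3 and at 129 and 136 FPKM in the other wild type libraries.

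Ppara measured 6.05, 14.0 and 8.45 FPKM with betaine, 3.78, 5.22 and 6.07 FPKM in the knockout and 28.4, 19.9 and 29.6 FPKM in wild type. It fell by 2.26 ± 0.29 on the log2 scale in the knockout against wild type (adjusted p = 0.00546) and by 1.46 ± 0.29 in betaine against wild type (adjusted p = 0.0177). Of 13 genes of PPAR-alpha signalling outside the oxidation enzymes, Ppara included, the fatty acid importer Cd36 rose in the knockout (1.15) while Ppara and its partner Rxra (-0.69) fell, beside 25.6% of all genes called. With betaine against wild type Cd36 rose (2.13), and Angptl4 (-2.03), Fgf21 (-1.61), the thioesterase Acot1 (-1.23), Rxra (-0.60) and Ppara fell, beside 11.7% of all genes called. Without wild type replicate 3 the last comparison called 3 of them, Cd36 higher and Ppara and Rxra lower, beside 12.0% of all genes. In betaine against the knockout none of the 13 passed, and 4 had an unadjusted p under 0.05, beside 22.5% of all genes. There Cd36 was called higher without wild type replicate 3, beside 2.30% of all genes called. Angptl4 was called lower without betaine replicate 1, beside 7.41% of all genes called.

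Summed over all 33 members the level was 3125 ± 376 FPKM with betaine, 3579 ± 115 FPKM in the knockout and 3093 ± 415 FPKM in wild type (SD, n = 3 each), with overlapping groups. The carnitine genes summed to 239.9 to 254 FPKM with betaine, 255 to 275 FPKM in the knockout and 261 to 381 FPKM in wild type, where replicate 3 was the lowest. The peroxisomal genes summed to 827 to 925 FPKM with betaine, 883 to 1009.8 FPKM in the knockout and 595 to 861 FPKM in wild type, with the knockout libraries all above wild type. A sum follows its largest members, here Acaa1b for the peroxisome and Crot for the carnitine system. The scale of the libraries moves any such direction. On TPM, which sets every library to the same total, the median of all genes shifted by -0.36 for the knockout against wild type and by 0.33 for betaine against the knockout. On that scale 3 members were higher and 14 lower in the knockout against wild type (588 and 3674 of all genes), and the members' median difference was -0.27, against -0.36 over all genes. Quantile normalization gave 3 higher and 6 lower, 27.3% of the members beside 25.8% of all genes. The members' median was then -0.11, against -0.01 over all genes, whereas in FPKM it was 0.15 against 0.02. Cpt1a, Acad11, Acadvl, Etfdh, Eci1, Etfb and Vnn1 were called in the same direction on the FPKM, TPM, quantile and equal-median scales.

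Exon length moved with the differences. Over 11849 genes Spearman's rho between exon length and log2 fold change was -0.461 for the knockout against wild type (-0.435 without wild type replicate 3), 0.285 for betaine against the knockout and -0.302 for betaine against wild type, a description across genes that share the same libraries. The 5 members that rose in the knockout had a median exon length of 2127 bases and the 4 that fell 7573.5 bases, beside 3798 bases for all tested genes. With the trend removed, 8 members passed, 5 higher and 3 lower, which is 24.2% of the members beside 18.3% of all genes. Acaa1b (0.45, adjusted p = 0.0809) and Etfdh (-0.23, adjusted p = 0.179) were lost and Echs1 (0.44, adjusted p = 0.0242) was gained. Cpt1a (-0.66), Acad11 (-0.62), Acadvl (-0.999), Eci1 (0.71), Etfb (1.04), Acaa1a (0.82) and Vnn1 (1.03) stayed past the threshold.

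**Figure D4:**
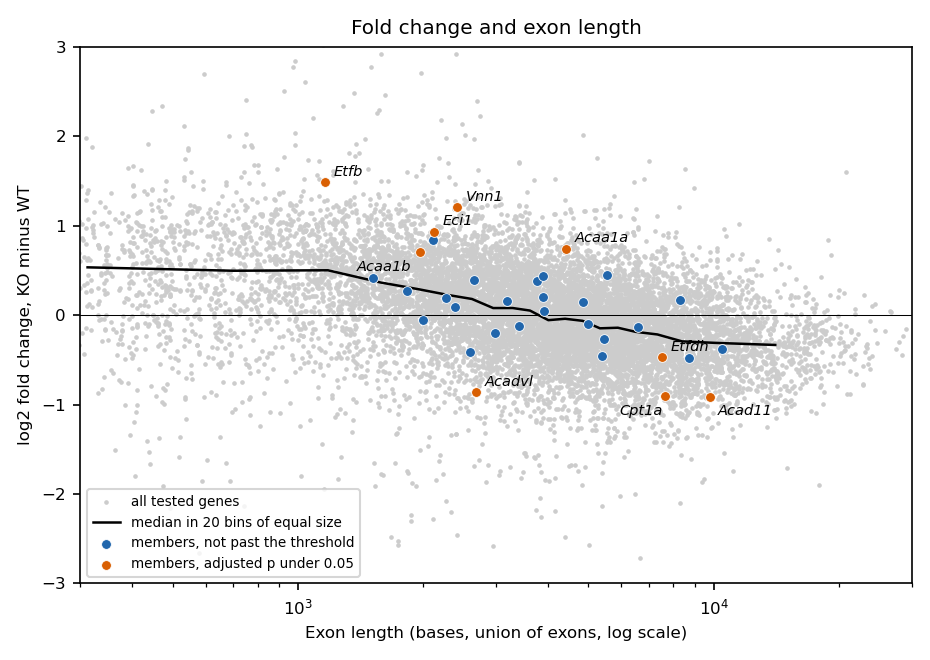
Log2 fold change, knockout minus wild type, against exon length in bases on a log axis, for all tested genes with exon length in grey and the members in colour, orange where the adjusted p was under 0.05; the line is the median in 20 bins of equal size. Genes beyond 3 on either side or outside 300 to 30000 bases are not shown, and most of the members that fell lie at long exon lengths, with Acadvl at 2686 bases the exception.

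**Figure D5:**
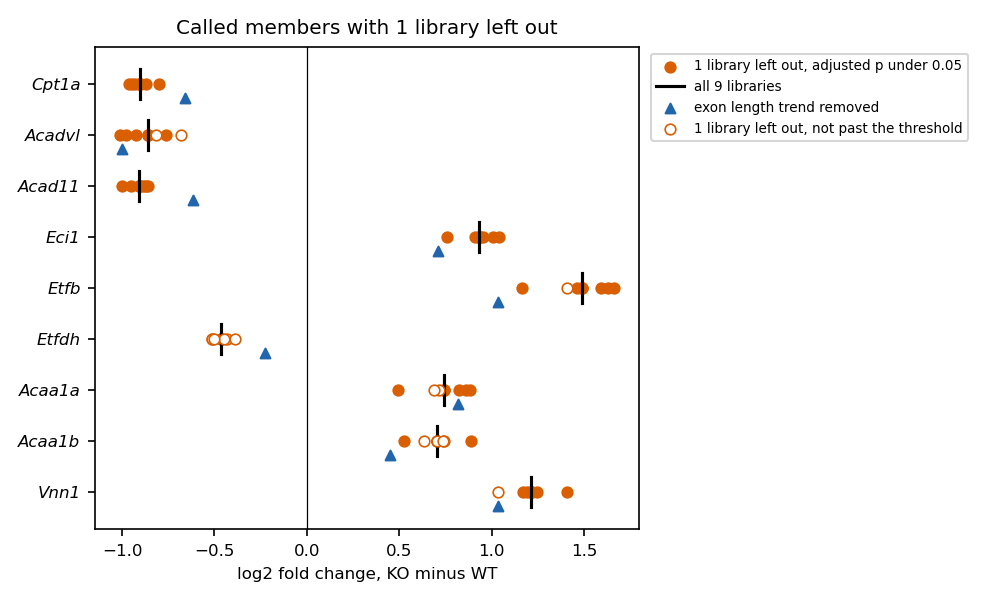
Log2 fold change, knockout minus wild type, of the 9 called members with each of the 9 libraries left out in turn; filled circles passed an adjusted p of 0.05 and open ones did not, the bar is the value in all libraries and the triangle the value with the exon length trend removed. Cpt1a, Acad11 and Eci1 have filled circles only.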

How the data were processed

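Liver RNA of 9 mouse samples in 3 groups of 3 was measured by poly(A) RNA sequencing, with an NEBNext Ultra kit per the labels' protocols and no strand stated. The deposited values are FPKM per gene and library, made by the authors before deposition. The build mm10 and the tools DESeq2 1.16.1, featureCounts 1.5.0-p3 and HISAT2 2.0.5 are named per the submitters' processing notes, without their roles. Exon lengths (union of exons, GENCODE M21, GRCm38) were found for 54495 of 54532 genes and symbols for 54409. With them, 98.3% to 98.6% of values of up to 20 reads lay within 0.05 of a whole read, and each library's scale lay within 0.000152 log2 of a median-of-ratios size factor. A count of 3 reads in a gene of 1 kb is 0.162 to 0.222 FPKM, for counting error only. No raw counts were used.

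Genes averaging 0.5 FPKM or more over the 9 libraries, 11852 in all, were tested as log2(FPKM + 0.5), so that fold changes of low genes are understated. One model over all 9 libraries was fitted in limma 3.58.1 (R 4.3.3, eBayes with trend and robust), two-sided, with p-values adjusted by Benjamini-Hochberg over all tested genes within each comparison and a threshold of 0.05. Each ± on a log2 fold change is the SE of that fit, with n = 3 libraries a group.

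The members and gene lists were chosen with earlier results of these data known. All 33 members were named. From the pathway list up to 8 genes past the threshold were named in each comparison, with Cth, Ppara and the ketogenesis genes always, and some named genes are not reported here. Slc22a5's levels, Cyp4a12a, Ucp1 and the genes overlapping members were named after their values were seen.

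Alternatives were other pseudocounts, filters and scalings (TPM, quantile, equal medians), removal of the exon length trend, plain eBayes, fits on 6 libraries, a replicate block and leaving out each library. The trend removal without wild type replicate 3 was added after seeing the data. Replicate numbers were not used to pair samples. Fits were tested on simulated data. Python 3.11.15 with pandas 2.3.3 and matplotlib 3.10.9 prepared tables and figures.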

Additional observations from a re-analysis of the deposited data

How the results depend on the processing

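Calls among the 33 members depend on single libraries. With 1 library left out in turn, knockout against wild type gave 1 to 6 members higher and 2 to 7 lower, among 896 to 3231 genes. Betaine against the knockout gave 0 higher and 0 to 3 lower, among 0 to 878 genes, and betaine against wild type 0 to 2 higher and 1 to 4 lower, among 351 to 1441 genes. For knockout against wild type, genes called were 896, 1706, 1826 and 1957 without knockout replicate 2, knockout replicate 3, wild type replicate 1 and knockout replicate 1 in turn. For betaine against the knockout they were 878 without betaine replicate 1, 273 without wild type replicate 3 and 0 to 7 without any other. For betaine against wild type they were 351 to 947 without each library other than betaine replicate 2 and wild type replicate 3.

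For knockout against wild type, 3 members were higher instead of 5 with no filter, on TPM, on quantiles and with the replicate block, and 14 instead of 4 were lower on TPM. Over all genes 913, 588, 1431 and 1139 were higher in those 4 settings, instead of 1519. On TPM 3674 of all genes were lower instead of 1510. All genes called were 1865 with no filter, where more genes are tested, and 1838 with the length trend removed and wild type replicate 3 left out, instead of 3029. On TPM Acadm reversed to -0.37 (adjusted p = 0.0446), from 0.05 in FPKM.

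For betaine against the knockout, TPM gave 6 members higher instead of 0. All genes called, 5 in FPKM, were 8 and 10 with pseudocounts of 0.1 and 1, 1 with no filter, 1754 on TPM, 0 with plain eBayes, 35 in the 6 libraries alone and 212 with the length trend removed and wild type replicate 3 left out.

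For betaine against wild type, 0 members were higher instead of 2 with no filter and in the 6 libraries alone, and 1 with the length trend removed. Instead of 1 lower there were 2 at a mean of at least 2 FPKM, 3 on quantiles, 2 with the length trend removed and 4 when wild type replicate 3 was also left out. In those 4 settings 16.1%, 12.7%, 9.42% and 11.3% of all genes were called in either direction. The members' shares were 12.1%, 15.2%, 9.09% and 18.2%. All genes called were 531 with no filter and 353 in the 6 libraries alone, instead of 1381.

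No label says that replicate numbers mark a shared litter or batch, and deviations from group means correlated at -0.227 to 0.098 between samples with the same number and at -0.137 to 0.263 between others, so the numbers were not taken as a pairing. A replicate block called 0 genes for betaine against the knockout, 671 genes and 0 members higher for betaine against wild type, and 3 members higher and 3 lower among 2210 genes for knockout against wild type. Over all members and alternatives, 1888 fold changes kept direction and side of the threshold, 50 lost the call, 50 gained it, 90 changed sign without a call on either side and 1 reversed. The causes of these changes were not tested. In FPKM with all 9 libraries only 9, 0 and 3 of the 33 members were called in the 3 comparisons. Most fold changes thus had no call to lose, and the 1888 do not measure how stable the calls were. Every member had at least 139 reads in each library.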
